A study of Mus musculus with 12 samples.

Results

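The NF-kB genes described here are 32 of the 23420 genes in the deposited count table: 5 subunits, 4 kinases, 9 inhibitors and feedback regulators, 7 adaptors and ubiquitin ligases, and 7 target genes. They were chosen by gene symbol, with no measured value in the rule but with earlier results of these data known, and all 32 were found. They were measured in macrophages sorted from mouse bone marrow, in MSC-treated tibias and untreated femurs (MSC, mesenchymal stromal cells), with 6 libraries for each bone. Each of 2 animals of C57BL/6 background, mouse 19 and mouse 7, gave 3 libraries from its treated tibia and 3 from its untreated femur. The sources used here do not give age, leukaemia status, cell dose or time after treatment.

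Every treated library is a tibia and every untreated one a femur, so bone and treatment cannot be told apart. The 3 libraries of 1 bone share an animal, and nothing in the labels says that they came from separate sorts. The p-values therefore measure the spread between libraries, which may be technical, and counts summed per animal and bone were tested beside them. These are bulk samples, in which fewer cells of a type and less RNA per cell cannot be told apart. All 32 genes passed the filter on low counts, which kept 11806 genes. Totals ran from 9773455 to 14869150 counts per library.

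The macrophage label was checked against marker genes. All 9 macrophage markers were tested and summed to 15780 to 17670 CPM, counts scaled to the same total in each library, in tibia libraries and 16250 to 19490 CPM in femur libraries. Granulocyte precursor markers reached similar sums, with 13330 to 20000 CPM in tibia and 13350 to 20120 CPM in femur libraries. Neutrophil markers summed to 9705 to 17250 CPM in tibia and 9670 to 16340 CPM in femur libraries, so transcripts of the granulocyte line were abundant in every library. The sums hide changes of single markers between the bones. Over both mice, 5 of 8 granulocyte precursor markers were called higher in the tibia and 1 lower, with log2 fold changes of 0.53 for Mpo, 0.51 for Elane, 0.44 for Prtn3, 0.48 for Ctsg, 0.23 for Camp and -0.20 for Chi3l3 (edgeR adjusted p of 0.0059 at most). Of 7 neutrophil markers 1 was called higher and 4 lower. Among the macrophage markers, Mertk was called higher and Lyz2 lower. B cell markers stood at no more than 32.2 CPM in tibia and 42.5 CPM in femur libraries, and T and NK cell markers at no more than 25.6 and 27.9 CPM. Hbb-b1 and Hba-a1, the adult globin genes, were at 0 in all 12 libraries, but other erythroid markers were present. The 6 erythroid markers summed to 8.03 to 9.04 CPM in tibia and 9.99 to 11.4 CPM in femur libraries of mouse 7. In mouse 19 they summed to 13.55 to 24.65 CPM in tibia and 25.48 to 38.27 CPM in femur libraries. The bones were thus apart within each mouse, and 1 of the 4 markers tested was called lower over both mice. The part of these other cells in the values below was not tested.

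NF-kB is a family of dimeric transcription factors that macrophages hold in the cytoplasm, bound to inhibitor proteins of the IkB type. Signals from Toll-like, TNF or IL-1 receptors pass through TRAF adaptors and ubiquitin ligases to the IkB kinase, which marks the inhibitors for destruction and frees Rela and Rel dimers. A second branch, used by receptors of the TNF superfamily such as RANK and CD40, processes the Nfkb2 precursor and releases dimers with Relb. Many target genes encode inhibitors of the same pathway, so that the response is switched off again.

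The binding site of the family, the kappa B site, was searched by its 10-base NF-kB consensus on both strands of RefSeq promoter windows (build GRCm38.p6), 250 bases before to 50 bases after each gene start. Of the 32 genes, 24 had such a window, and 11 of the 24 held a match (45.8%), against 1388 of 27025 genes with a window in the genome (5.14%). Members were listed as pathway genes and targets, many of them known for control by NF-kB, so this share describes the list. The 5 sites shown here belong to genes whose values recur below, and are given on the gene's strand with the matching bases in capitals; a match is not shown to be bound. The Rel site (chr11:23771042-23771071, minus strand) starts at -92 from the gene start and the Ier3 site (chr17:35821611-35821640, plus strand) also at -92. The Nfkb2 sites shown (chr19:46304688-46304717 and chr19:46305695-46305724, plus strand) lie at -39 and 11 from different annotated starts. The Nfkbia site (chr12:55492657-55492686, minus strand) lies at -29. Further matches, not shown, start at -91 in Rel and at -38, -11 and -236 in Nfkb2. Negative positions are upstream of the start, and position 11 is downstream of it.
Rel: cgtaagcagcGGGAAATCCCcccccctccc
Ier3: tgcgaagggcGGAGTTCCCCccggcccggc
Nfkb2, first site: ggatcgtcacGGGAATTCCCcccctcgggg
Nfkb2, second site: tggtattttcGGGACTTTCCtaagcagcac
Nfkbia: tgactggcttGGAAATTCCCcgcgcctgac
The letters searched were not in the windows of Ptgs2, Birc2, Birc3 and Icam1.

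Levels of different genes were compared as CPM per kilobase of exon, with the exon length of GENCODE release M21. Nfkbia, the main cytoplasmic inhibitor, was the highest of the 32 at 61.4 ± 4.80 CPM per kilobase in tibia and 60.5 ± 5.95 in femur libraries (SD, n = 6 each). Tnfaip2, a target gene of TNF, followed at 56.2 ± 1.34 in tibia and 59.0 ± 0.891 in femur libraries, and in the femur its mean lay within 1 SD of that of Nfkbia. Among the subunits Rela stood highest, at 35.2 ± 1.45 in tibia and 35.7 ± 1.90 in femur libraries. Nfkb1 (25.1 ± 0.337 in tibia, 26.8 ± 0.854 in femur) and Nfkb2 (20.2 ± 0.803 in tibia, 20.2 ± 3.08 in femur) came next among them. Relb (6.66 ± 0.387 in tibia, 6.46 ± 0.864 in femur) and Rel (5.03 ± 0.574 in tibia, 6.01 ± 0.729 in femur) were the lowest subunits, and in the femur their means lay within 1 SD of each other. At the low end of the 32 stood Traf1 (0.738 ± 0.160 in tibia, 0.859 ± 0.187 in femur), Ptgs2 (1.64 ± 0.638 in tibia, 0.958 ± 0.377 in femur) and Cd83 (2.84 ± 0.517 in tibia, 4.06 ± 0.691 in femur). The exons of 7 members overlap a gene on the opposite strand (Nfkb2, Ikbkg, Nfkbib, Bcl3, Tnfaip2, Tnfaip8 and Icam1), by up to 14.5% of their length with 1 gene in Nfkbib. The strand setting of the counting is not given, so reads of such partners may stand in these values.

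**Figure D1:**
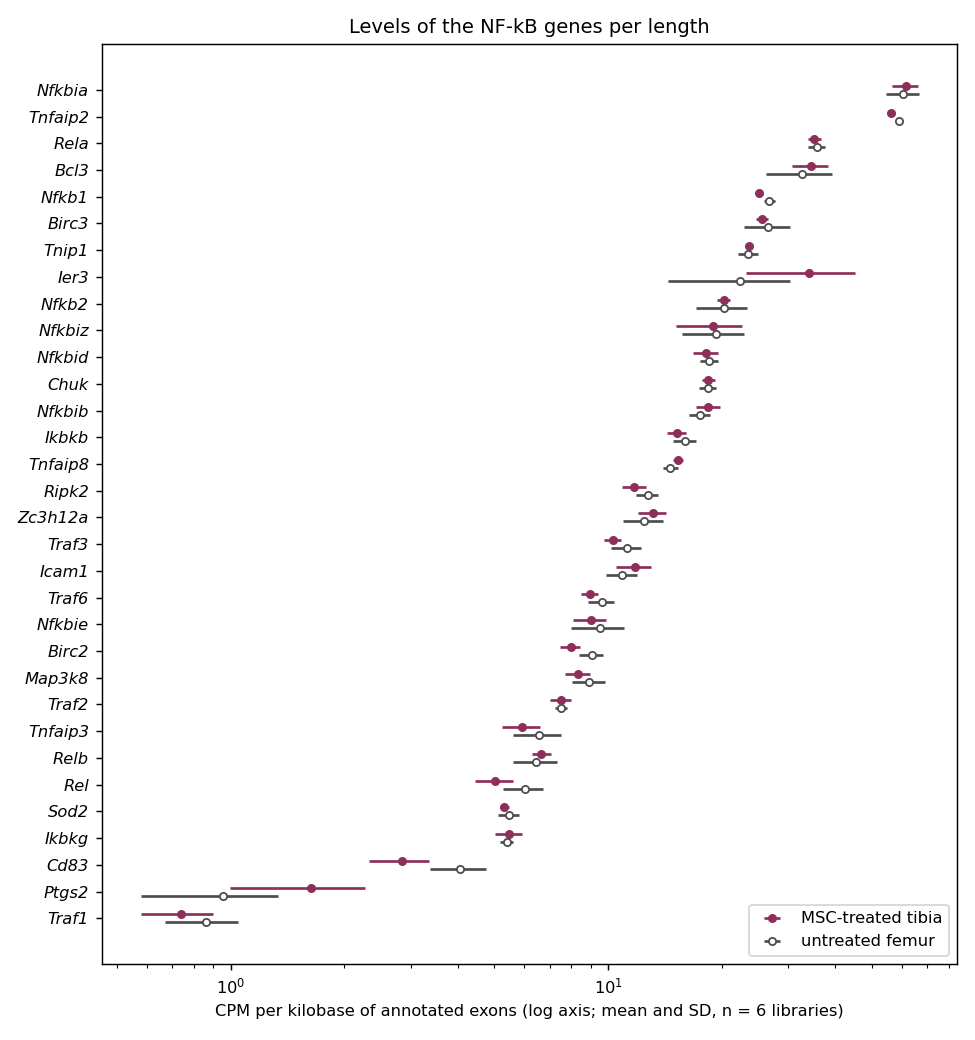
Level of each of the 32 NF-kB genes as CPM per kilobase of exon (log axis), mean and SD of 6 libraries, in MSC-treated tibia (filled) and untreated femur (open). The order runs from Nfkbia at 61.4 in tibia and 60.5 in femur down to Traf1 at 0.738 and 0.859, and most genes have overlapping SD bars.

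Over both mice, 5 of the 32 genes passed the test, an adjusted p under 0.05 in edgeR's quasi-likelihood test with the mouse as a term, against 850 of 11806 genes tested (7.20%). Ptgs2 and Ier3 were higher in the tibia (all genes: 414 higher, 3.51%), and Rel, Birc2 and Cd83 were lower (all genes: 436 lower, 3.69%). The median log2 fold change, tibia over femur, was -0.03 for the 32 genes and -0.0021 for all genes tested, and the median size of the change was 0.07 and 0.08 on the log2 scale. The 5 called genes are 15.6% of the members, went both ways, and left 27 that did not pass. Members were chosen with earlier results of these data known, so this share describes the list. With counts summed per animal and bone, 1 of the 32 passed, Ier3, against 48 of 11806 genes higher (0.407%) and 65 in either direction (0.551%).

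**Figure D2:**
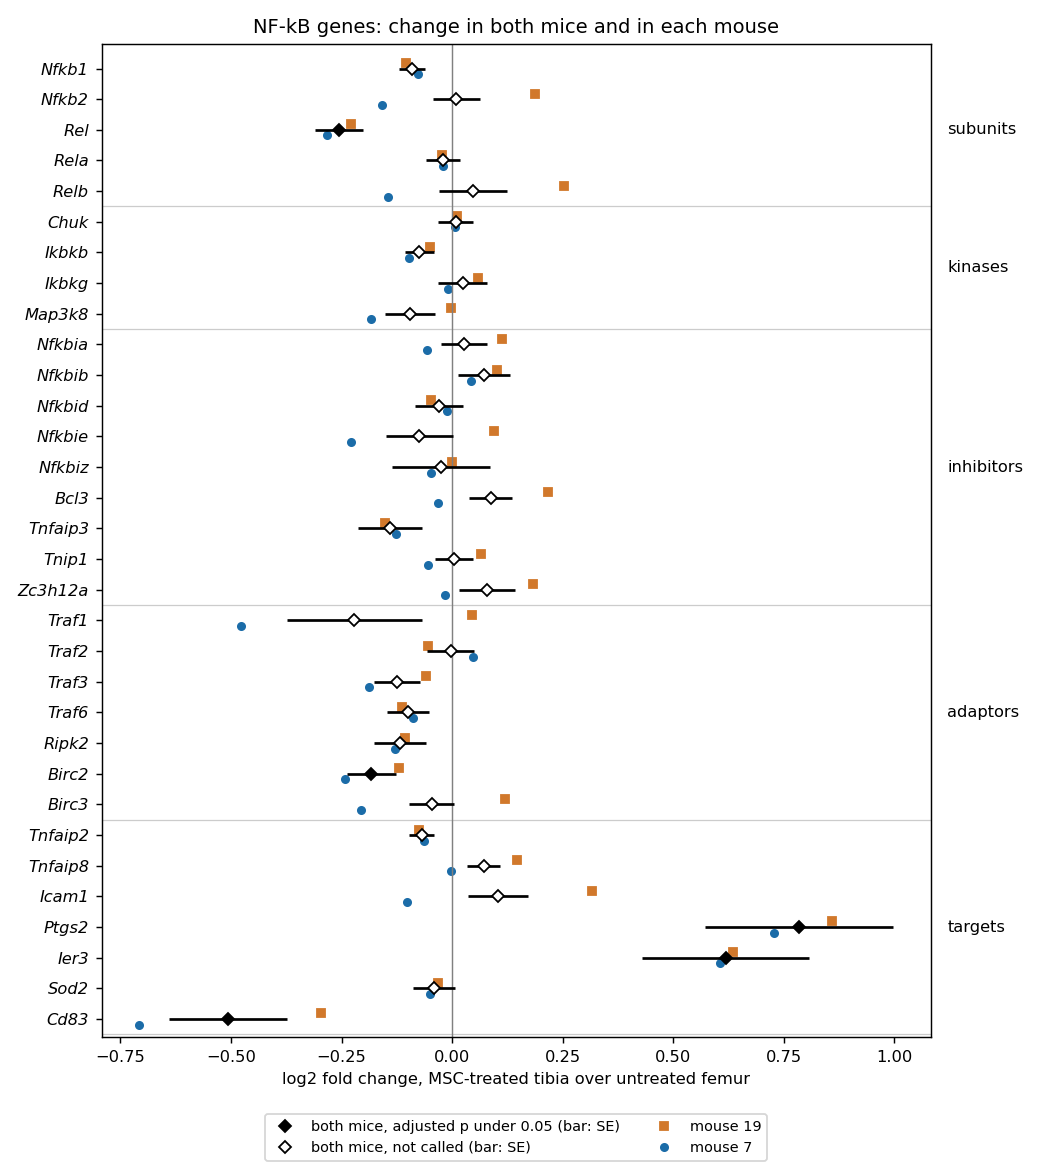
Log2 fold change of each gene, tibia over femur, over both mice (diamond with SE, filled where the adjusted p is under 0.05) and in mouse 19 (orange square) and mouse 7 (blue circle). Ptgs2 at 0.78 and Ier3 at 0.62 stand to the right in both animals, Rel, Birc2 and Cd83 to the left, and Nfkb2, Birc3, Icam1 and Relb have the 2 animals on opposite sides of 0.

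Of the 5 subunits, Rel fell, and the other 4 did not pass the test over both mice. Rel, the c-Rel subunit of lymphoid and myeloid cells, had 35.7, 30.9 and 36.4 CPM in tibia libraries of mouse 19, against 38.9, 42.7 and 39.0 CPM in its femur libraries. In mouse 7 it had 41.8, 37.9 and 42.6 CPM in tibia libraries, against 51.7, 48.6 and 48.4 CPM in femur libraries. The 2 bones did not overlap within either animal, and the femur libraries of mouse 19 lay in the range of the tibia libraries of mouse 7 or just beyond it. The log2 fold change of Rel was -0.26 ± 0.05 (SE, edgeR adjusted p = 0.0040), with all 6 tibia libraries below the femur mean of their own mouse. How many of all genes had such a count of libraries was not determined. Here and for the genes below, that count is a description, without a test. The call held without each of the 12 libraries in turn, with an adjusted p of 0.0159 at most. In sums per animal the adjusted p was 0.186.

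Nfkb1, which encodes p105 and its product p50, had the least overlap of the 32 genes. It ran from 297 to 309.5 CPM in the 6 tibia libraries and from 310.4 to 340 CPM in the 6 femur libraries, so no tibia library reached the lowest femur library. No other member was separated in this way over both mice, while 86 of all genes were (0.728%), and no member had all tibia libraries above all femur libraries (114 of all genes, 0.966%). The fold change was small, -0.09 ± 0.03 on the log2 scale, and the edgeR adjusted p was 0.0576; DESeq2 gave 0.0230. Rela, which carries the strong transactivation domain, had 108 ± 4.47 CPM in tibia and 110 ± 5.83 CPM in femur libraries, a log2 difference of -0.02 ± 0.04 (adjusted p = 0.808). Nfkb2 (0.01 ± 0.05) and Relb (0.05 ± 0.08), the subunits of the second branch, had log2 fold changes near 0 over both mice, with opposite signs in the 2 animals.

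None of the 4 kinases passed edgeR's test, nor DESeq2's, and 1 of them had an unadjusted p under 0.05 (all genes: 2451 of 11806). Log2 fold changes ran from -0.10 to 0.02. Chuk, the IKK alpha subunit that drives the second branch, had 93.9 ± 3.77 CPM in tibia and 93.3 ± 4.71 CPM in femur libraries. Ikbkb, the IKK beta subunit of the first branch, had 290 ± 16.6 CPM in tibia and 305 ± 21.9 CPM in femur libraries (adjusted p = 0.207), with all 6 tibia libraries below the femur mean of their own mouse. Ikbkg, the regulatory subunit NEMO, had 44.4 ± 3.59 CPM in tibia and 43.7 ± 1.63 CPM in femur libraries. Map3k8, a kinase held by p105 that feeds the ERK pathway, had 37.5 ± 2.79 CPM in tibia and 40.2 ± 3.92 CPM in femur libraries (adjusted p = 0.357).

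The 9 inhibitors and feedback regulators held no call over both mice, in edgeR or in DESeq2. None had an unadjusted p under 0.05 in edgeR's test (all genes: 2451 of 11806). Nfkbia had 98.9 ± 7.74 CPM in tibia and 97.4 ± 9.58 CPM in femur libraries (log2 0.03 ± 0.05). Nfkbib and Nfkbie, the other IkB proteins of the cytoplasm, had log2 fold changes of 0.07 ± 0.06 and -0.07 ± 0.08. The nuclear IkB proteins Nfkbid, Nfkbiz and Bcl3 had log2 fold changes of -0.03 ± 0.05, -0.03 ± 0.11 and 0.09 ± 0.05. Tnfaip3 (A20), an enzyme that edits ubiquitin chains on the pathway's adaptors, had 42.7 ± 4.82 CPM in tibia and 47.3 ± 6.89 CPM in femur libraries. Its log2 fold change was -0.14 ± 0.07 (adjusted p = 0.269), with all 6 tibia libraries below the femur mean of their own mouse. Tnip1, which binds A20, stood at 0.00 ± 0.04, and Zc3h12a, a ribonuclease that degrades inflammatory mRNAs, at 0.08 ± 0.06.

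Within mouse 19 Bcl3 passed the test (log2 0.22 ± 0.06, edgeR adjusted p = 0.0307). Bcl3, a nuclear IkB protein that binds p50 and p52 dimers, had 77.3, 81.5 and 73.7 CPM in tibia libraries of mouse 19, against 63.5, 71.0 and 65.3 CPM in its femur libraries. Tibia libraries of mouse 7 had 89.5, 97.4 and 92.0 CPM, against 94.5, 97.5 and 93.3 CPM in its femur libraries. The bones did not overlap in mouse 19 and overlapped in mouse 7, where the log2 fold change was -0.03 (adjusted p = 0.797). The difference between the animals was not called (adjusted p = 0.0921). Without tibia library 1 or 2 of mouse 19 the adjusted p within mouse 19 was 0.0852 or 0.153, and without its femur library 1 or 3 it was 0.158 or 0.115.

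Over both mice, all 7 adaptors and ubiquitin ligases had negative log2 fold changes, from -0.22 to -0.0035, and 1 of them, Birc2, passed the test. Their median was -0.12, against -0.0021 for all genes. Within mouse 19, Birc3 (0.12) and Traf1 (0.04) were positive, and within mouse 7 Traf2 was (0.05). The other changes of the 7 genes within each animal were negative. Birc2 (cIAP1), a ubiquitin ligase of TNF receptor complexes that also keeps the second branch off, had 37.9, 34.7 and 36.0 CPM in tibia libraries of mouse 19, against 41.4, 39.9 and 37.2 CPM in its femur libraries. In mouse 7 it had 40.2, 35.5 and 34.5 CPM in tibia libraries, against 42.6, 46.4 and 41.1 CPM in femur libraries. All 6 tibia libraries lay below the femur mean of their own mouse, but the bones overlapped in mouse 19. The log2 fold change was -0.18 ± 0.06 (edgeR adjusted p = 0.0481). This call lay at the threshold: it was kept without tibia library 1 of either mouse or femur library 3 of mouse 19, and lost without each of the other 9 libraries. Those adjusted p-values were 0.101 and 0.0618 without tibia library 2 and 3 of mouse 19, 0.0921 and 0.0751 without its femur library 1 and 2, 0.114 and 0.136 without tibia library 2 and 3 of mouse 7, and 0.0834, 0.134 and 0.0599 without femur library 1, 2 and 3 of mouse 7. In sums per animal it was 0.424.

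The other adaptors did not pass over both mice. Traf3, which holds the kinase NIK in check, had 75.8 ± 3.90 CPM in tibia and 82.6 ± 7.51 CPM in femur libraries (log2 -0.12 ± 0.05, adjusted p = 0.159). Traf6, the ubiquitin ligase of Toll-like and IL-1 receptor signalling, had 70.6 ± 3.58 CPM in tibia and 75.8 ± 6.12 CPM in femur libraries (adjusted p = 0.227). Ripk2, the kinase that carries NOD receptor signals, had 33.0 ± 2.40 CPM in tibia and 35.8 ± 2.44 CPM in femur libraries (adjusted p = 0.249). For Traf6 and Ripk2, as for Birc2, all 6 tibia libraries lay below the femur mean of their own mouse, a count whose share over all genes was not determined. Traf2, the adaptor of TNF receptors, was nearest to no change (38.2 ± 2.35 CPM in tibia, 38.4 ± 1.45 CPM in femur). Traf1, which pairs with Traf2, varied between libraries more than most members, with a biological coefficient of variation of 13.4% against a median of 5.30% for the 32 genes, and had 6.51 ± 1.41 CPM in tibia and 7.57 ± 1.65 CPM in femur libraries.

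Among the 7 target genes, Ptgs2 and Ier3 rose, Cd83 fell, and 4 did not pass over both mice. Ptgs2, which encodes the inducible cyclooxygenase COX-2 of prostaglandin synthesis, had 3.30, 10.1 and 4.53 CPM in tibia libraries of mouse 19, against 4.22, 3.43 and 2.28 CPM in its femur libraries. Tibia libraries of mouse 7 had 7.99, 8.82 and 10.2 CPM, against 7.46, 4.56 and 4.36 CPM in its femur libraries. The bones were apart in mouse 7, while in mouse 19 the mean rested on 1 high tibia library and the bones overlapped. The log2 fold change was 0.78 ± 0.21, a fold of 1.72 (edgeR adjusted p = 0.0253), and 5 of 6 tibia libraries lay above the femur mean of their own mouse. The adjusted p rose to 0.0731 when that tibia library 2 of mouse 19 was left out, and was 0.0581 without femur library 3 of mouse 19, 0.0664 without tibia library 3 of mouse 7, and 0.0656 and 0.0645 without femur library 2 and 3 of mouse 7. In sums per animal it was 0.0592, and DESeq2 gave 0.0667.

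Ier3 (IEX-1), a stress-inducible regulator of survival, had 23.1, 57.6 and 33.7 CPM in tibia libraries of mouse 19, against 35.6, 22.2 and 16.7 CPM in its femur libraries. In mouse 7 it had 34.4, 33.9 and 48.7 CPM in tibia libraries, against 37.1, 16.7 and 23.6 CPM in femur libraries. The bones overlapped in both animals, and the 3 libraries of 1 bone of 1 mouse spanned more than the gap between the means of the bones. The mean was 38.6 ± 12.4 CPM in tibia and 25.3 ± 9.01 CPM in femur libraries (log2 0.62 ± 0.19, edgeR adjusted p = 0.0470). DESeq2 gave an adjusted p of 0.221. Summing the libraries gave 0.0029. The animals were alike in this measure: the mean of the 3 libraries was 38.1 CPM in the tibia of mouse 19 and 39.0 CPM in that of mouse 7, against 24.8 and 25.8 CPM in their femurs. Leaving out single libraries ended the call in 8 of 12 cases. With tibia library 2 of mouse 19 left out the adjusted p was 0.158; it was 0.0927 and 0.110 without its femur library 2 and 3, 0.0569, 0.0543 and 0.131 without tibia library 1, 2 and 3 of mouse 7, and 0.121 and 0.0911 without femur library 2 and 3 of mouse 7.

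Ier3 and Ptgs2 had the highest variation of the 32 genes, with biological coefficients of variation of 20.2% and 20.9%, against a median of 6.08% for all genes tested. Their libraries followed the immediate early genes, transcripts that cells raise within minutes of stimulation or handling. The summed level of 8 such genes (Fos, Fosb, Jun, Junb, Egr1, Atf3, Dusp1 and Ier2) was 2223, 3727 and 2741 CPM in tibia libraries of mouse 19, against 3753, 2796 and 2064 CPM in its femur libraries. In mouse 7 it was 2439, 2631 and 2948 CPM in tibia libraries, against 2905, 1967 and 2359 CPM in femur libraries. The list of 10 handling-stress markers, which adds the heat shock genes Hspa1a and Hspa1b, summed to 2234 to 3742 CPM in tibia and 2021 to 3833 CPM in femur libraries, and 2 of the 10, those heat shock genes, were called lower. Per doubling of the 8-gene sum, Ier3 was higher by 1.62 ± 0.13, Ptgs2 by 1.55 ± 0.27 and Nfkbiz by 0.90 ± 0.09 on the log2 scale (SE, 12 libraries, edgeR adjusted p = 3.8e-09, 0.0023 and 1.9e-07, with mouse and bone in the model). No other member had a slope that passed: Tnfaip3, Zc3h12a and Nfkbia had 0.31 ± 0.11, 0.26 ± 0.11 and 0.23 ± 0.09 (adjusted p = 0.645, 0.736 and 0.677). The libraries share animals, so these p-values too measure the spread between libraries.

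With the log2 sum as a term beside mouse and bone, chosen after the data were seen, the tibia over femur difference was 0.47 for Ier3 (edgeR adjusted p = 9.5e-05) and 0.61 for Ptgs2 (adjusted p = 0.0092). In that model Rel and Cd83 also passed, Birc2 did not (adjusted p = 0.0633), and Nfkb1 did (adjusted p = 0.0402). Without tibia library 2 and femur library 1 of mouse 19, the libraries with the highest sums in each bone, the differences without the term were 0.59 for Ier3 (adjusted p = 0.0276) and 0.65 for Ptgs2 (adjusted p = 0.0346).

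**Figure D3:**
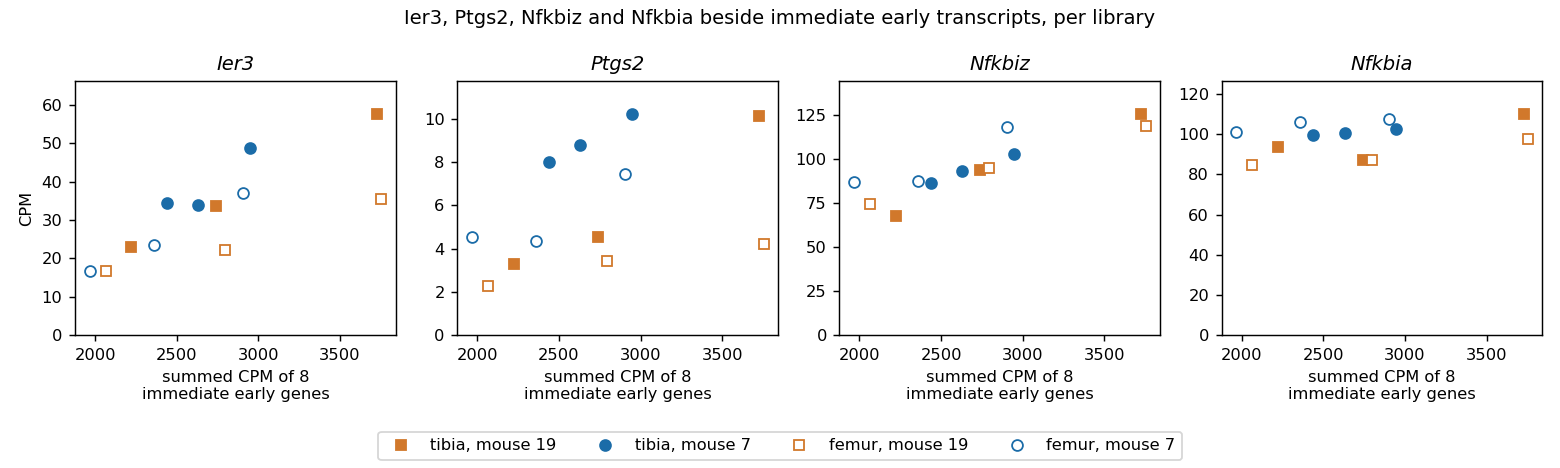
Level in CPM of Ier3, Ptgs2, Nfkbiz and Nfkbia in each of 12 libraries against the summed CPM of 8 immediate early genes; filled symbols are MSC-treated tibia, open ones untreated femur, orange squares mouse 19 and blue circles mouse 7. Ier3 and Nfkbiz rise along the axis in both animals, most filled Ier3 points lie above open ones at a like sum, and Nfkbia averages 98.9 CPM in tibia and 97.4 CPM in femur libraries.

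Cd83, a surface glycoprotein of activated dendritic cells, B cells and macrophages, had 8.63, 8.76 and 5.41 CPM in tibia libraries of mouse 19, against 10.1, 7.18 and 10.9 CPM in its femur libraries. Tibia libraries of mouse 7 had 6.17, 7.21 and 7.67 CPM, against 12.2, 11.8 and 10.5 CPM in its femur libraries. The bones were apart in mouse 7 and overlapped in mouse 19. The log2 fold change was -0.51 ± 0.13 (edgeR adjusted p = 0.0209), at -0.30 (adjusted p = 0.431) in mouse 19 and -0.71 (adjusted p = 0.0082) in mouse 7; the difference between the animals had an adjusted p of 0.478. The adjusted p over both mice was 0.0592 without tibia library 1 of mouse 7 and 0.0542 and 0.0515 without femur library 1 and 2 of mouse 7, and in sums per animal it was 0.217. Dendritic cell markers were also lower in the tibia. Their sum was 68.8 to 74.4 CPM in tibia and 97.0 to 99.7 CPM in femur libraries of mouse 7. In mouse 19 it was 84.9 to 96.3 CPM in tibia and 108 to 116 CPM in femur libraries, apart where Cd83 overlapped. The femur sum was higher in mouse 19, while mean femur Cd83 was higher in mouse 7 (11.5 CPM, against 9.40 CPM in mouse 19). Of the 7 markers, 3 were called lower (Flt3, Cd209a and Itgax), against 3.69% of all genes. None of the 7 markers was at 0 in all libraries. B cell markers summed to 17.3 to 20.2 CPM in tibia and 16.1 to 18.7 CPM in femur libraries of mouse 19, and to 25.8 to 32.2 CPM in tibia and 32.8 to 42.5 CPM in femur libraries of mouse 7, apart between the bones there as Cd83 was. Of the 5 B cell markers tested, none was called over both mice. Within mouse 7, Ms4a1 was called lower (log2 -0.77, edgeR adjusted p = 0.0485, against 0.0983 over both mice). The part of dendritic and B cell markers in the Cd83 result was not tested.

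The other targets differed less between the bones. Sod2, the mitochondrial superoxide dismutase, had 53.2 ± 1.42 CPM in tibia and 54.7 ± 3.49 CPM in femur libraries (log2 -0.04 ± 0.05). Tnfaip2 had 280 ± 6.68 CPM in tibia and 294 ± 4.44 CPM in femur libraries, with the bones apart within each animal, but the log2 difference was -0.07 ± 0.03 and did not pass (adjusted p = 0.155). Tnfaip8, a TNF-induced regulator of survival, had 159 ± 4.88 CPM in tibia and 151 ± 6.86 CPM in femur libraries (adjusted p = 0.279). Icam1, the adhesion molecule that binds leukocyte integrins, had 51.2 ± 5.43 CPM in tibia and 47.6 ± 4.46 CPM in femur libraries over both mice (adjusted p = 0.410), where the animals differed.

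**Figure D4:**
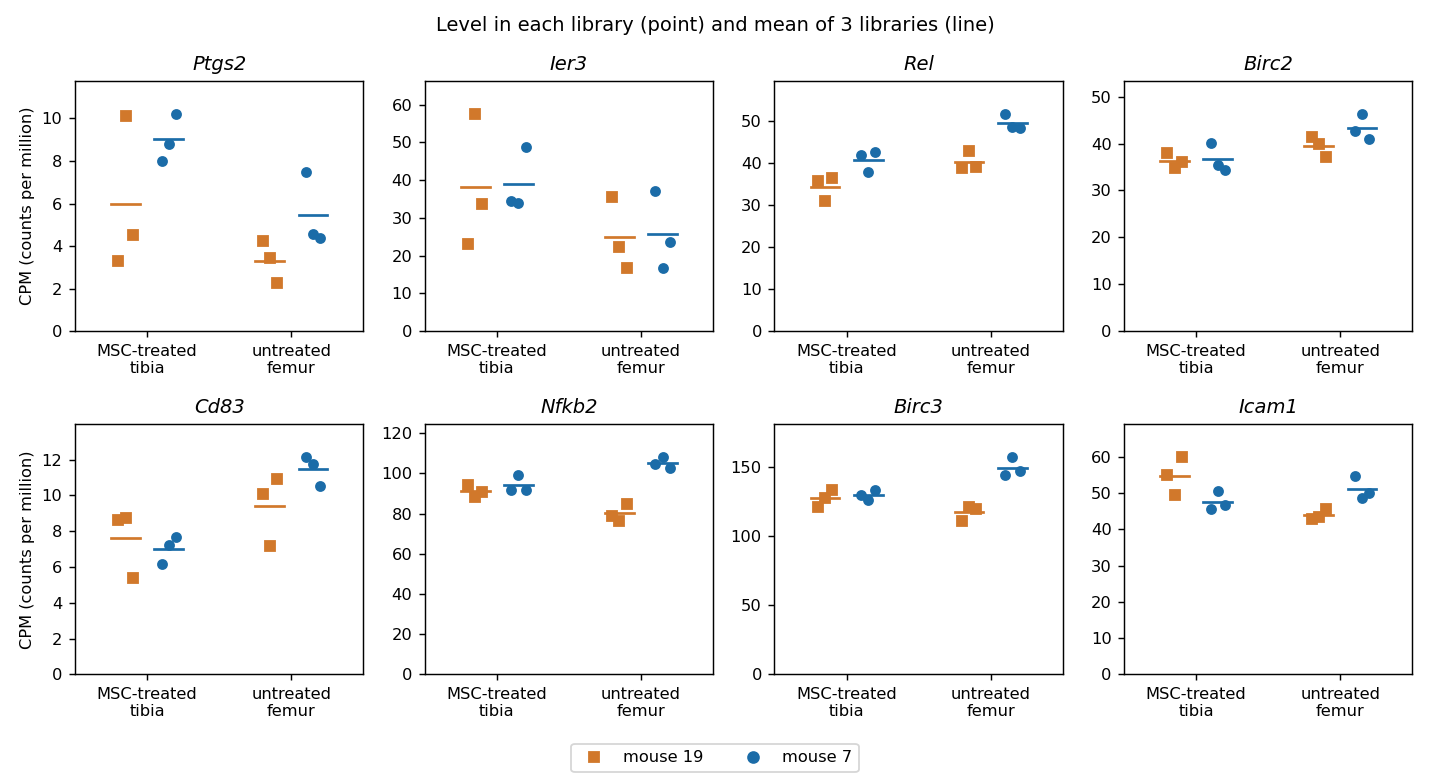
CPM in each library (points) and mean of 3 libraries (lines) for the 5 genes called over both mice (Ptgs2, Ier3, Rel, Birc2, Cd83) and the 3 whose change differed between the mice (Nfkb2, Birc3, Icam1), in MSC-treated tibia and untreated femur, for mouse 19 (orange squares) and mouse 7 (blue circles). In the last 3 panels the femur points of mouse 19 lie below those of mouse 7, while the tibia points of the 2 animals overlap; for Icam1 the tibia mean of mouse 19 is the higher one.

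The tibia over femur change of 3 members differed between the animals. Within mouse 19, 2 members were called (610 of all genes, 5.17%), Icam1 and Bcl3, both higher (349 of all genes higher, 2.96%) and none lower (261 of all genes lower, 2.21%; 2 members with an unadjusted p under 0.05 and 0 by DESeq2). Within mouse 7, 4 members were called (1149 of all genes, 9.73%), Rel, Birc2, Birc3 and Cd83, all lower (633 of all genes lower, 5.36%) and none higher (516 of all genes higher, 4.37%; 2 members with an unadjusted p under 0.05 and 0 by DESeq2). In either direction, an unadjusted p under 0.05 was reached by 11 members and 2028 of 11806 genes within mouse 19. Within mouse 7 it was reached by 12 members and 2688 genes. Cd83 kept its call in mouse 7 without each library in turn. For Rel the adjusted p in mouse 7 was 0.0872 with its tibia library 2 left out and 0.0707 with its femur library 1 left out. Birc2 lost its call in mouse 7 without its tibia library 2 (0.140) or 3 (0.192), its femur library 1 (0.0798) or 2 (0.212), and also when tibia library 3 (0.0525) or femur library 1 (0.0530) of mouse 19 was left out. Within mouse 19, 6 members had all 3 tibia above all 3 femur libraries (10.8% of all genes) and 3 had them below (10.3%). Within mouse 7, 1 member had them above (12.2% of all genes) and 11 had them below (14.4%). The difference between the animals, mouse 19 minus mouse 7, was called for 3 members (560 of all genes, 4.74%), all with a higher change in mouse 19 (341 of all genes in that direction, 2.89%), and for none in the other direction (219 of all genes, 1.85%; 0 members by unadjusted p or by DESeq2). The median difference was 0.09 over the 32 genes and 0.01 over all genes, on the log2 scale.

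The 3 genes were Nfkb2, Birc3 and Icam1. Nfkb2, the p100 precursor of the second branch, had 94.4, 88.4 and 90.8 CPM in tibia libraries of mouse 19, against 79.0, 76.4 and 85 CPM in its femur libraries. In mouse 7 it had 91.9, 99.1 and 91.8 CPM in tibia libraries, against 105, 108 and 103 CPM in femur libraries. The bones were apart in both animals, in opposite directions. The log2 fold change was 0.19 in mouse 19 (adjusted p = 0.0525) and -0.16 in mouse 7 (adjusted p = 0.0702), neither of them called, and the difference was 0.345 ± 0.08 (edgeR adjusted p = 0.0075).

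Birc3 (cIAP2), a ubiquitin ligase that is itself an NF-kB target, had 121, 128 and 133 CPM in tibia libraries of mouse 19, against 111, 121 and 120 CPM in its femur libraries. Tibia libraries of mouse 7 had 130, 126 and 133 CPM, against 144, 157 and 147 CPM in its femur libraries. The tibia libraries lay above the femur libraries in mouse 19 and below them in mouse 7. The log2 fold change was 0.12 in mouse 19 (adjusted p = 0.233) and -0.21 in mouse 7 (adjusted p = 0.0098), with a difference of 0.324 ± 0.07 (edgeR adjusted p = 0.0070). Nfkb2 and Birc3 kept this call without each of the 12 libraries in turn. Within mouse 7, the adjusted p of Birc3 was 0.0569 when its tibia library 2 was left out and 0.0819 when its femur library 2 was. Without tibia library 2 and femur library 1 of mouse 19 together, the adjusted p of the difference was 0.0565 for Birc3.

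Icam1 had 55.0, 49.6 and 60.0 CPM in tibia libraries of mouse 19, against 43.0, 43.4 and 45.7 CPM in its femur libraries. In mouse 7 it had 45.7, 50.6 and 46.7 CPM in tibia libraries, against 54.6, 48.7 and 50.2 CPM in femur libraries. The bones were apart in mouse 19 and overlapped in mouse 7. Its log2 fold change was 0.32 ± 0.07 in mouse 19 (adjusted p = 0.0077) and -0.10 ± 0.07 in mouse 7 (adjusted p = 0.433), and the difference was 0.417 ± 0.10 (edgeR adjusted p = 0.0125). Without tibia library 3 of mouse 19 the adjusted p of the difference was 0.0637, and that within mouse 19 was 0.0586. Without femur library 1 of mouse 7 the difference had an adjusted p of 0.0544.

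Relb had the same pattern below the threshold, with 26.8 CPM in the tibia and 22.6 CPM in the femur of mouse 19, and 24.9 CPM in the tibia and 27.6 CPM in the femur of mouse 7 (means of 3 libraries). The difference in its log2 fold change was 0.40 ± 0.13 (adjusted p = 0.0860). Set out by bone, the animals lay closer together in the tibia. The log2 ratio of mouse 19 over mouse 7 was -0.05 in the tibia and -0.39 in the femur for Nfkb2, and -0.02 in the tibia and -0.35 in the femur for Birc3. For Icam1 the ratio changed sign, with 0.20 in the tibia and -0.22 in the femur. The gap between the animals was smaller in the tibia for 27 of 32 members (84.4%), against 7174 of 11806 genes (60.8%), with a median gap of 0.07 in the tibia and 0.14 in the femur for the members, and 0.12 and 0.16 for all genes. These counts are a description, without a test.

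**Figure D5:**
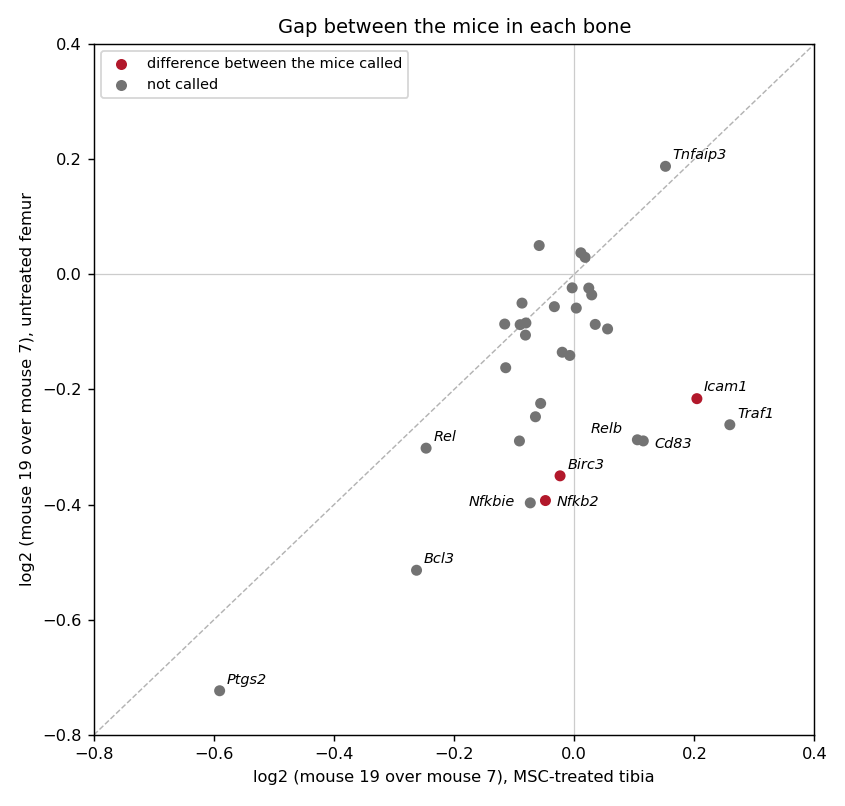
Log2 ratio of mouse 19 over mouse 7 for each of the 32 genes, in MSC-treated tibia (x axis) and untreated femur (y axis); the dashed line marks equal ratios, and red points are genes whose tibia over femur change differed between the mice. Most points lie below the dashed line, and Nfkb2 and Birc3 lie near 0 on the x axis and at -0.39 and -0.35 on the y axis.

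Marker sums of the cells also differed by animal. Macrophage markers summed to 15780 to 16700 CPM in tibia and 16250 to 16690 CPM in femur libraries of mouse 19, against 16930 to 17670 CPM in tibia and 18920 to 19490 CPM in femur libraries of mouse 7. Granulocyte precursor markers summed to 18540 to 20000 CPM in tibia and 18240 to 20120 CPM in femur libraries of mouse 19, and to 13330 to 13680 CPM in tibia and 13350 to 14350 CPM in femur libraries of mouse 7. Single markers moved by animal as well. Mpo, Prtn3 and Ctsg, genes of granulocyte precursors, had log2 fold changes, tibia over femur, of 0.23, 0.25 and 0.12 in mouse 19, against 0.84, 0.64 and 0.89 in mouse 7, with a called difference between the animals (edgeR adjusted p of 0.0018, 0.0026 and 0.00034). The macrophage markers Adgre1, Csf1r, Fcgr1 and Itgam differed the other way, with 0.12, 0.21, 0.49 and 0.11 in mouse 19, against -0.22, -0.14, -0.11 and -0.06 in mouse 7 (adjusted p of 0.0253 at most). The macrophage sum, like Nfkb2 and Birc3, stood highest in the femur of mouse 7. The part of these markers in the differences of Nfkb2, Birc3 and Icam1 was not tested.

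Other genes of the pathway were read from a list of 60, all of them tested. Over both mice 1 was higher and 2 were lower (all genes: 3.51% higher and 3.69% lower), with a median log2 fold change of 0.01. Tnfrsf11a, which encodes the receptor RANK, had 13.0 ± 1.01 CPM in tibia and 10.4 ± 1.12 CPM in femur libraries (log2 0.32 ± 0.10, edgeR adjusted p = 0.0437). Malt1, the protease of the CARD and BCL10 complex that activates the IkB kinase, had 134 ± 6.47 CPM in tibia and 152 ± 15.1 CPM in femur libraries (log2 -0.17 ± 0.04, adjusted p = 0.0080). Ticam2, the adaptor TRAM of Toll-like receptor 4, had 75.1 ± 7.81 CPM in tibia and 83.3 ± 6.90 CPM in femur libraries (adjusted p = 0.0388). Tlr4 itself had 67.7 ± 8.50 CPM in tibia and 67.7 ± 13.9 CPM in femur libraries (adjusted p = 0.949). Leaving out single libraries ended the Tnfrsf11a call except for tibia library 1 or femur library 1 of mouse 7 (0.0512 to 0.100 in the other 10 cases). It ended the Ticam2 call except for tibia library 1 of either mouse or femur library 3 of mouse 7 (0.0537 to 0.108 in the other 9 cases). The Malt1 call held in all 12 cases, and was lost (0.0604) without tibia library 2 and femur library 1 of mouse 19 together. In sums per animal the adjusted p was 0.388 for Tnfrsf11a, 0.305 for Malt1 and 0.413 for Ticam2. None of these genes passed in that test, which has 4 samples and called 65 of 11806 genes (0.551%).

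A list of 47 other NF-kB target genes had 38 tested, of which 5 were higher and 0 lower (4 with a lower level at an unadjusted p under 0.05, and 0 lower by DESeq2). Of all genes tested, 414 were higher (3.51%) and 436 lower (3.69%), and 2451 of 11806 had an unadjusted p under 0.05 in either direction. The animals went different ways. Within mouse 19, 6 of the 38 were called higher and 0 lower (all genes: 2.96% and 2.21%). Within mouse 7, 1 was called higher and 6 lower (all genes: 4.37% and 5.36%). The list was chosen with earlier results of these data known, so its counts describe the list and not NF-kB targets in general. Cxcl16, a membrane-bound chemokine and scavenger receptor, had 14.9 ± 3.07 CPM in tibia and 7.28 ± 0.674 CPM in femur libraries, a log2 fold change of 1.01 ± 0.12 (edgeR adjusted p = 7.6e-06), and also passed in sums per animal (adjusted p = 0.0157). Nos2, the inducible nitric oxide synthase, was low at 1.63 ± 1.59 CPM in tibia and 0.256 ± 0.256 CPM in femur libraries (adjusted p = 4.7e-04). Nos2 was called within mouse 19 (log2 2.72, adjusted p = 2.6e-04) and not within mouse 7 (1.49, adjusted p = 0.399). The difference between the animals was not called (adjusted p = 0.771). Marcksl1 (log2 0.33 ± 0.06, adjusted p = 0.0014), an actin-linked kinase substrate, Cdkn1a (0.21 ± 0.06, adjusted p = 0.0359), the cell cycle inhibitor p21, and Il1b (0.34 ± 0.10, adjusted p = 0.0464), which encodes interleukin-1 beta, were the others. The Il1b change differed between the animals, with a log2 fold change of 0.77 in mouse 19 (adjusted p = 5.7e-07) and -0.04 in mouse 7 (adjusted p = 0.842; difference, adjusted p = 8.7e-05). Il1b also did not pass by DESeq2 (adjusted p = 0.119). Marcksl1 was called within mouse 19 (log2 0.48, edgeR adjusted p = 3.1e-05) and not within mouse 7 (0.17, adjusted p = 0.153). The difference between the animals was not called (adjusted p = 0.0872). Cdkn1a was called within neither mouse 19 (adjusted p = 0.190) nor mouse 7 (adjusted p = 0.0896). In sums per animal Nos2 passed (adjusted p = 0.0374), while Marcksl1 (0.112), Cdkn1a (0.230) and Il1b (0.419) did not. Il1b lost its call without tibia library 1 (0.101) or 2 (0.109) or any femur library of mouse 19 (0.102, 0.125 and 0.102), or tibia library 3 of mouse 7 (0.0690). Cdkn1a lost it when tibia library 2 (0.0761), femur library 2 (0.0802) or femur library 3 (0.0859) of mouse 19 was left out, and when tibia library 2 (0.0876), tibia library 3 (0.0881) or femur library 2 (0.0994) of mouse 7 was. Tnf, the founding cytokine of the family, had 16.9 ± 4.36 CPM in tibia and 17.6 ± 4.88 CPM in femur libraries (adjusted p = 0.827). Il6 stood at 0.381 ± 0.225 CPM in tibia and 0.245 ± 0.156 CPM in femur libraries and was too low to be tested.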

How the data were processed

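Macrophage RNA was sequenced as mRNA libraries, per the labels' protocols. The authors deposited 1 table of raw read counts per gene and library, without scaling. The submitters' processing notes name the build mm10 and list bcl2fastq, HISAT2, featureCounts, Subread and DESeq2, while their versions, settings and strand handling are not stated in these sources. Among counts of 1 to 10, 69.8% were even, as when both ends of a pair are counted, so a fit on halved counts was an alternative.

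Of 23420 genes, 16286 had a count in a library and 11806 were kept by filterByExpr (minimum count 10, 4 groups). Total counts were 9773455 to 14869150 per library. Libraries of 1 group were farther apart than sampling noise alone gives (on halved counts, a chi-square per gene of 1.39 to 3.26) and stayed separate. Tests used edgeR 4.0.16 in R 4.3.3, with TMM, quasi-likelihood fits and Benjamini-Hochberg adjustment over all genes, two-sided, called under 0.05: the mouse as a term over both mice, and 1 mean per mouse and bone for contrasts within a mouse and between mice. SE is the absolute log2 change over the square root of F. CPM uses TMM-scaled totals, with SD over 6 libraries. Scripts were tested on simulated data. DESeq2 1.42.0, upper-quartile factors, other filters, counts summed per mouse and bone, replicate blocks and leaving out each library were alternatives.

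The members and lists were chosen with earlier results of these data known. Named genes were the 32 members; from the other 2 lists, up to 5 highest and 5 lowest called genes, plus Tnf, Il1b, Il6 and Tlr4; and markers, from lists in which Ly6g and Trac were not matched.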

Additional observations from a re-analysis of the deposited data

Results flagged for a closer look

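Among 64 groups of 6 libraries (32 genes, 2 bones), 2 held a library far from the other 5; chance gives about 1 in 20. Tnfaip3 had 60.9 CPM in femur library 1 of mouse 19, against 41.4 to 46.5 CPM in the other femur libraries. Traf1 had 10.8 CPM in femur library 3 of mouse 7, against 6.29 to 7.51 CPM in the other femur libraries.

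The tibia over femur change differed between the animals, by a test of the difference itself, for 3 genes. Mouse 19 minus mouse 7 was 0.345 for Nfkb2, 0.324 for Birc3 and 0.417 for Icam1 on the log2 scale, with edgeR adjusted p-values of 0.0075, 0.0070 and 0.0125. Each gene was higher in the tibia in 3 of 3 tibia libraries of mouse 19 than the highest femur library of that mouse.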

How the results depend on the processing

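No called direction was reversed under any alternative run. Against 2 members called higher over both mice, DESeq2 gave 0, a filter of 5 CPM in at least 3 libraries 1, counts summed per mouse and bone 1, and leaving out each library 0 to 2. Against 3 called lower, sums gave 0 and leaving out each library 1 to 3. Over all genes (414 higher, 436 lower), sums gave 48 higher and 17 lower, and leaving out each library 284 to 498 higher and 279 to 490 lower. Within mouse 19, against 2 members higher, DESeq2 gave 4, no filter on low counts 5 and leaving out each library 1 to 3. Within mouse 7, no filter gave 2 members higher, against 0, and leaving out each library 0 to 2 higher and, against 4, 2 to 5 lower. The cause was not tested, except that sums leave 4 samples.

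Libraries that share a number did not deviate together (correlations of -0.0474 to 0.00059), so the numbers do not pair them. With library number as a replicate block beside the mouse, 1 member was higher and 1 lower (Ptgs2 and Rel), and 239 genes higher and 256 lower. Without the mouse term, no replicate block, 0 members were higher and 0 lower, and 50 genes higher and 24 lower.

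Chosen after seeing the data, leaving out tibia library 2 and femur library 1 of mouse 19 together gave 255 genes lower over both mice, 2 members higher within mouse 7 and 1 higher within mouse 19. Depth limits the low genes: Traf1, Ptgs2 and Cd83 had under 13 CPM in every library, and Il6 was not tested.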
